A study of Homo sapiens with 10 samples.

Results

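The p53 target genes described here are 35 genes that the transcription factor p53 is known to switch on, or that regulate p53 itself, taken from a named list without CDKN1A, BTG2, the sestrins and the BCL2 family. The rule that names them uses no expression value, though the list was drawn up with earlier results of these data known. All 35 were found by Ensembl identifier among the 20327 genes of the deposited tables. RNA was sequenced from hTERT RPE-1 cells, a wild-type human retinal pigment epithelium line immortalised with telomerase, in 2 experiments with 10 libraries in all. Every group had been starved for 48 h in medium with 0.1% fetal bovine serum. The 30 min experiment set 3 libraries of cells given merbarone at 200 µM for 30 min against 3 given its vehicle DMSO for 30 min. The 2 h experiment set 2 libraries of cells given 200 µM merbarone for 2 h against 2 of untreated cells, which received no vehicle. The labels do not say whether replicates were separate cultures, so the p-values measure the spread between these libraries, which may be technical.

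In cells without stress p53 is kept scarce by MDM2, a ubiquitin ligase that marks it for destruction and is itself a p53 target. DNA breaks activate the kinases ATM, ATR and DNA-PK, which free p53 from MDM2, and p53 then binds pairs of short half-sites near genes for cell cycle arrest, DNA repair, cell death and metabolism. Topoisomerase II cuts both DNA strands to relieve supercoils. Poisons such as etoposide trap it on cut DNA, whereas merbarone is a catalytic inhibitor that blocks the enzyme before the cut. The comparison therefore asks, gene by gene, whether targets that respond to DNA damage moved within each experiment.

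Promoter sequence is shown for the members that carry an adjoining pair of p53 half-sites next to a transcription start, since p53 acts through such pairs. RefSeq promoter windows of 300 bases (250 before and 50 after the start) were held for 26 of the 35 members. They are on build GRCh38.p14, whereas the deposited values and the gene positions given further on are on GRCh37. Windows were searched on both strands for the p53 half-site consensus, a palindromic motif of 10 bases, and for 2 such half-sites side by side with at most 2 mismatches in 20 bases. A half-site without a mismatch lay in 6 of the 26 member genes and in 8.06% of all 27305 genes with a window. These 6 include EI24 and FDXR, which have no pair, and leave out MDM2, whose pair holds a mismatch in each half-site. An adjoining pair lay in 5 of the 26, which were AEN, MDM2, DDB2, FAS and PANK1, and in 0.82% of all genes. These 5 were singled out after the sequences had been searched. The windows of AEN (chr15:88621090-88621369, plus strand, pair beginning at position -34 from the start) and of the third of 4 MDM2 starts (chr12:68808767-68809046, plus strand, pair beginning at -94) are printed 5′ to 3′, up to base 30 after the start. Capitals mark the bases of the pair that match the consensus, and lower case within the pair marks mismatches. The window of the fourth MDM2 start holds the same pair at -101.
AEN: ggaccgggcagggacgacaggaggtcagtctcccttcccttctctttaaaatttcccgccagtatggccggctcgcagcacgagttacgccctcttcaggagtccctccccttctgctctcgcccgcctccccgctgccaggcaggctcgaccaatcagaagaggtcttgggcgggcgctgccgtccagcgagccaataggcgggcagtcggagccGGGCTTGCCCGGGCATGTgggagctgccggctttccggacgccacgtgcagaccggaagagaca
MDM2: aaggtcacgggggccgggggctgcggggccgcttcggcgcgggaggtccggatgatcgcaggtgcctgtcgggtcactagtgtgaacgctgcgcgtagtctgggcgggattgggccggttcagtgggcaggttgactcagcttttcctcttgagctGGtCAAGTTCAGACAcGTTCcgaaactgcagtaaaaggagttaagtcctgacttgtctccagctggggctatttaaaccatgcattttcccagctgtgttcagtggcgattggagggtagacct
The pairs alone are given for the other members, with the same use of capitals.
DDB2: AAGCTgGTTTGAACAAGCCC
FAS: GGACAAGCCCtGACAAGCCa
PANK1: GGGCAgGaCTGGGCATGCTC
The DDB2 pair lay at chr11:47214969-47214988, the FAS pair at chr10:88991309-88991328 and the PANK1 pair, on the minus strand, at chr10:89645256-89645275. The letters are a description of the reference genome and not evidence of binding in these cells.

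The deposited unit is RPKM, a read number scaled to gene length and sequencing depth. The lengths behind it matched the genomic span, introns included, for most genes, so members with long introns have low RPKM values. Whole reads could be recovered from the steps of the RPKM values. They came to 26633780 to 38225538 reads per library in the 30 min experiment and 11956652 to 13691014 reads in the 2 h experiment, and replicates differed by more than sampling noise. Of 9 retinal pigment epithelium markers, BEST1 was at 2.1 to 20 RPKM, PMEL at 3.68 to 5.07 RPKM and OTX2 at 2.35 to 4.61 RPKM. MITF and SERPINF1 stayed at or under 0.415 and 0.425 RPKM. The visual cycle genes RPE65 and RLBP1 stayed at or under 0.0656 and 0.0603 RPKM, and TTR and TYR at or under 0.02 and 0.00338 RPKM. T cell and endothelial genes CD3E and CDH5 were at 0 in every library, and PTPRC at or under 0.00758 RPKM. The epithelial genes EPCAM and CDH1 stayed at or under 0.00123 and 0.00234 RPKM, while the keratins KRT8 and KRT18 were at 1.8 to 6.64 and 14.1 to 69.4 RPKM. The mesenchymal genes VIM and FN1 were at 560 to 1110 and 75 to 239 RPKM. In bulk RNA, fewer cells expressing a gene and less RNA per cell cannot be told apart.

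With the reads divided by summed exon length in place of the genomic span, the members' levels in untreated cells spread widely. Reads from introns would raise genes with long introns on this scale, and their share is not known. EPHA2, an ephrin receptor kinase, had a mean of 79.6 on this exon-length RPKM scale, CCNG1 (cyclin G1) 53.6, the death receptor TNFRSF10B 39.5 and the AKT inhibitor PHLDA3 36.7. MDM2 had 10.9 and AEN 12.3. At the low end were TLR3, a sensor of double-stranded RNA, at 0.928, the decoy receptor TNFRSF10C at 0.924, the ceramidase ACER2 at 0.236 and the cytokine GDF15 at 0.092. A mean of at least 1 RPKM, the minimum for the test on log2(RPKM + 1), was reached by 17 members in the 30 min experiment and 19 in the 2 h experiment. A mean of at least 10 reads, the minimum for limma's voom test on recovered reads, was reached by 33 and 34. FBXO22 passed the RPKM minimum and GDF15 the read minimum at 2 h only through the treated libraries. ACER2, with 4 to 13 reads per library, was tested in neither experiment. Members that share exon sequence with a gene on the other strand are uncertain, since the use of strand in counting is not stated. These are MDM2, XPC, FAS, TP53INP1, TP53I3, FBXO22, POLH and TNFRSF10B, and the spans of EI24 and TRIAP1 also cross another gene.

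After 30 min of merbarone no p53 target gene passed either test. In limma on log2(RPKM + 1), 0 of 17 members passed at an adjusted p under 0.05, against 0.0154% of the 6500 genes tested, which is 1 gene. With the replicate number as a block, which pairs treated and DMSO libraries, 0 of 17 members passed and 0.123% of all genes did. Voom passed 0 of 33 members and 0.00714% of 14012 genes. At an unadjusted p under 0.05 stood 0 of 17 members without the block and 1 with it, beside 0.369% and 3.2% of all genes, and 0 of 33 in voom and 2 in voom with the block, beside 0.307% and 3.07%. The treated and DMSO libraries overlapped for all 35 members. Over all genes the groups did not overlap for 2.28% of those of at least 1 RPKM and 2.4% of those of at least 10 reads. For lists of 17 and 33 members, 0 is near these shares.

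The members' 30 min differences were small in both directions. Their log2 fold changes on the log2(RPKM + 1) scale had a median of -0.00, the same over all genes being -0.01, and ran from -0.10 (TP53INP1) to 0.08 (EPHA2). AEN, the gene with the largest later rise among members above 1 RPKM, stood at 5.28, 4.99 and 4.61 RPKM in DMSO and at 5.23, 4.9 and 4.64 RPKM after 30 min. Its log2 fold change of -0.01 had a 95% interval of -0.17 to 0.15. MDM2 stood at 2.65, 3.73 and 2.92 RPKM in DMSO and 2.72, 3.23 and 2.8 RPKM in merbarone, with an interval of -0.32 to 0.20. The widest interval belonged to CCNG1, at -0.47 to 0.46, so a modest change of that gene would not have been detectable in this fit. These intervals are from the fit without the replicate block, which does not pair the libraries. In order of replicate number CCNG1 had 16.1, 22.4 and 24 RPKM in DMSO and 16.2, 23.4 and 22.6 RPKM in merbarone. Much of its spread was thus shared by same-numbered libraries. The fits without the block could also miss large changes. ATF3, a gene outside the members, had 0.0487, 0.0517 and 0.0491 RPKM in DMSO and 0.359, 0.46 and 0.158 RPKM in merbarone. Voom without the block did not call it. The absence of calls among the members is therefore weak evidence that they did not move. CDKN1A, the reference target outside the list, had 24.2, 26.3 and 22.3 RPKM in DMSO and 24.9, 30.1 and 23.8 RPKM in merbarone, and its log2 difference was 0.11 ± 0.11 (SE, adjusted p = 1) in limma.

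**Figure D1:**
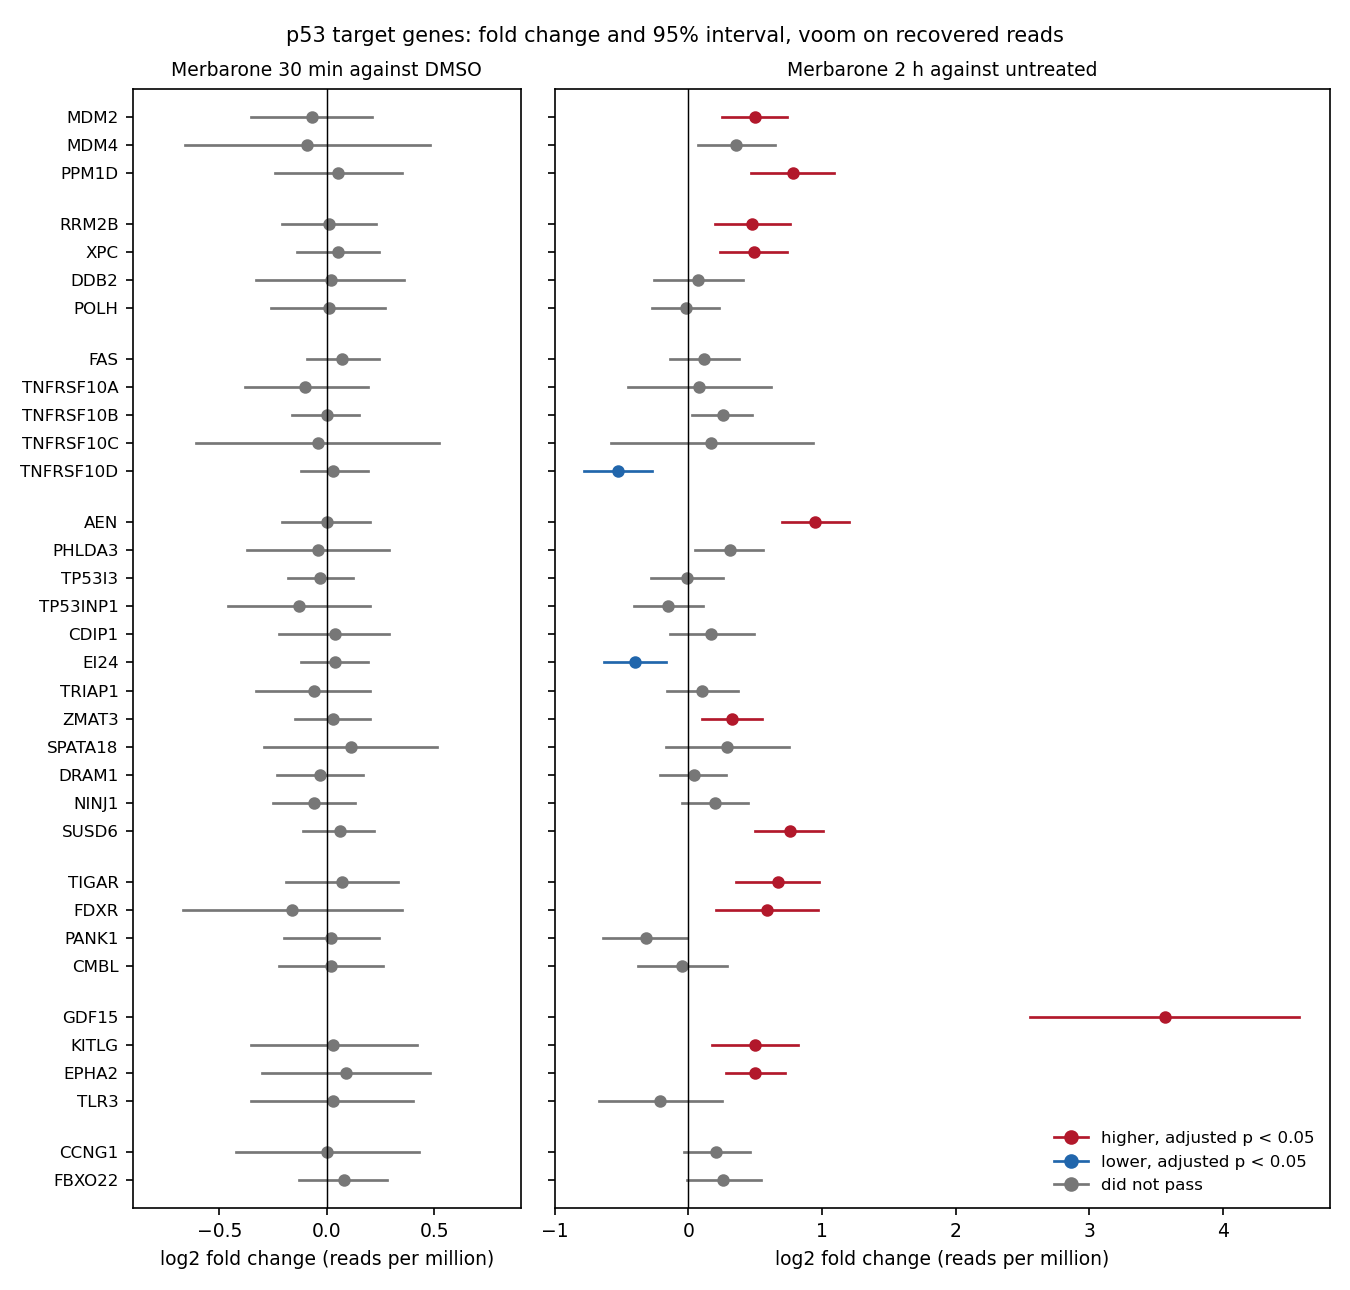
Log2 fold changes (points) with 95% intervals (lines) of the members tested by voom on recovered reads, in blocks by role; the left panel is merbarone 30 min against DMSO and the right panel merbarone 2 h against untreated, on different x scales. No member passed on the left, while 11 were higher and 2 lower on the right beside GDF15, which entered through its treated libraries alone; ACER2 is in neither panel and GDF15 only in the right one, because of their read numbers.

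After 2 h of merbarone some p53 target genes were higher than in untreated cells and 2 were lower. Since FBXO22 passed the RPKM minimum and GDF15 the read minimum through the treated libraries alone, both were left out of the counts of that fit. In limma on log2(RPKM + 1), 4 of the other 18 members rose (AEN, EPHA2, MDM2 and XPC), 2 fell (TNFRSF10D and EI24) and 12 did not pass. Over all 6620 genes tested 5.98% were called higher and 7.1% lower, and over the 6365 at the minimum in both groups 5.14% and 6.87%. Voom on recovered reads, which also tests the members of low RPKM, called 11 of the other 33 members higher and 2 lower. This stands against 8.82% and 6.61% of 13440 genes, and 8.53% and 6.65% of the 13245 at the minimum in both groups. Of all genes called, 45.7% were higher in limma and 57.2% in voom. The members' median log2 fold change was 0.21 against -0.05 for all genes in limma, and 0.21 against -0.00 in voom. The treated libraries lay above both untreated ones for 11 of the 18 members and below them for 2. Over the 6365 genes at that minimum in both groups they lay above for 1365 and below for 2496, in all 60.7%. Of all genes of at least 1 RPKM, 61.5% did not overlap in one direction or the other. Among the 33 members the counts were 19 above and 3 below. Over the 13245 genes at the read minimum in both groups they were 3752 and 3915, in all 57.9%, and 58.1% of all genes tested by voom did not overlap.

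These counts depended on single libraries, and so did those of all genes. GDF15, left out of the counts above, is included in every voom count of members given here for a fit without 1 library. Without the second merbarone library 2 members and 398 genes passed in limma, and 5 members, GDF15 included, and 657 genes in voom. Without the first merbarone library the numbers were 3 and 328 in limma and 8 and 570 in voom, and without the first untreated library 11 and 2464 in limma and 17 and 4130 in voom. In voom AEN, PPM1D and SUSD6 were called whichever of the 4 libraries was left out, and the other 10 of the 13 lost the call in at least 1 of those fits. Members not called with all libraries gained a voom call without the first untreated library (MDM4 at 0.41, CCNG1 at 0.44 and TNFRSF10B at 0.27) or the second (PHLDA3 at 0.51, NINJ1 at 0.31 and TP53INP1 at -0.32).

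**Figure D2:**
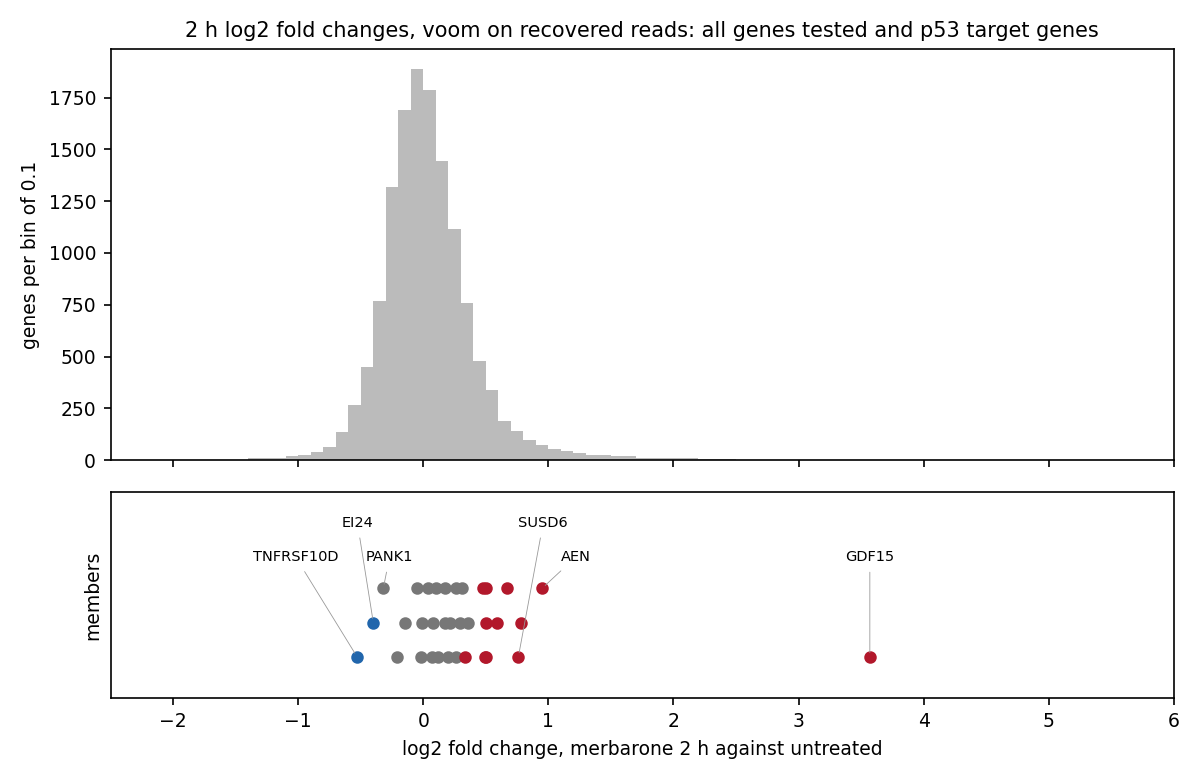
Upper panel, number of genes per bin of 0.1 in log2 fold change at 2 h, over the 13440 genes tested by voom; lower panel, the 34 members on the same axis, stacked only for legibility, with red for higher, blue for lower and grey for not passing. Most members lie within the bulk of all genes, to the right of its centre, and GDF15 lies apart at 3.57.

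Among the regulators that feed back on p53, MDM2 and PPM1D rose and MDM4 did not pass. MDM2 (chr12:69201957-69239324, plus strand) stood at 2.76 and 2.1 RPKM in untreated cells and at 3.3 and 3.52 RPKM after merbarone, so both treated libraries lay above both controls. Its log2 fold change was 0.37 ± 0.10 (SE, adjusted p = 0.0468) in limma and 0.50 ± 0.12 (adjusted p = 0.00498) in voom, a rise of 1.41-fold. The limma call was lost without the second untreated library (0.23, adjusted p = 0.0719) or either merbarone library (adjusted p = 0.0902 and 0.187), with all 10 libraries in 1 fit (adjusted p = 0.11), with a minimum and pseudocount of 0.1 (adjusted p = 0.0957) and without a trend (adjusted p = 0.0596). The voom call was lost without either merbarone library (adjusted p = 0.0535 and 0.14), and the gene overlaps CPM on the other strand. PPM1D, the phosphatase WIP1 that undoes phosphorylation by the damage kinases, had 0.293 and 0.229 RPKM in untreated cells and 0.419 and 0.476 RPKM in treated cells. It was under the RPKM minimum and rose 1.71-fold in voom (log2 0.78 ± 0.15, adjusted p = 6.93e-04). MDM4, an inhibitory relative of MDM2, had 0.396 and 0.354 against 0.519 and 0.445 RPKM, with a log2 difference of 0.36 and an adjusted p of 0.0892 in voom.

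In the DNA repair group the lesion sensor XPC and the nucleotide-supply enzyme RRM2B rose, while DDB2 and POLH did not pass. XPC (chr3:14186647-14220121, minus strand), which finds distorted DNA for nucleotide excision repair, went from 1.73 and 1.78 RPKM to 2.27 and 2.69 RPKM. The log2 fold change was 0.33 ± 0.08 (adjusted p = 0.0319) in limma and 0.49 ± 0.12 (adjusted p = 0.00612) in voom. Without the second merbarone library the limma value was 0.25 (adjusted p = 0.325) and the voom value 0.37 (adjusted p = 0.281), and the limma call was also lost with a minimum and pseudocount of 0.1 (adjusted p = 0.061). RRM2B, the p53-inducible subunit of ribonucleotide reductase, had 1.52 and 1.05 RPKM in controls and 1.74 and 1.8 RPKM after merbarone. It passed in voom (log2 0.48 ± 0.14, adjusted p = 0.0163) but not in limma (0.29, adjusted p = 0.0834). The voom value fell to 0.25 without the second untreated library (adjusted p = 0.145) and was 0.73 without the first, and the call was also lost without either merbarone library (adjusted p = 0.118 and 0.164). DDB2, the ultraviolet lesion sensor that carries a half-site pair, had 0.593 and 0.534 RPKM against 0.562 and 0.625 RPKM, and the translesion polymerase POLH 1.34 and 1.17 against 1.18 and 1.29 RPKM, so both overlapped. Their voom intervals were -0.26 to 0.41 and -0.27 to 0.23.

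Without the replicate block no death receptor was called higher in limma or voom over all 2 h libraries, and the decoy receptor TNFRSF10D fell. Voom with the block called TNFRSF10B higher, in a fit that called 13.8% of all genes higher. TNFRSF10D (chr8:22993101-23021540, minus strand) binds the death ligand TRAIL without passing on the death signal. It went from 3.1 and 2.69 RPKM to 1.79 and 2.26 RPKM, the treated libraries lying below both controls. The log2 fold change was -0.37 ± 0.10 (adjusted p = 0.0398) in limma and -0.53 ± 0.13 (adjusted p = 0.00486) in voom. Without the first merbarone library the values were -0.26 (adjusted p = 0.43) and -0.35 (adjusted p = 0.385). The limma call was also lost under quantile normalization (adjusted p = 0.0641), with a minimum and pseudocount of 0.1 (adjusted p = 0.0838) and without a trend (adjusted p = 0.0541). TNFRSF10B, the signalling TRAIL receptor DR5, had 4.16 and 3.91 RPKM in controls and 4.49 and 5.16 RPKM in treated cells, a log2 difference of 0.26 with an adjusted p of 0.108 in voom. It was called higher without the first untreated library (limma 0.25, adjusted p = 0.0455, and voom 0.27, adjusted p = 0.0231). FAS, the receptor of FAS ligand, had 2.2 and 1.83 against 2.07 and 2.31 RPKM and overlapped, with a voom interval of -0.14 to 0.38. TNFRSF10A and TNFRSF10C, at 46 to 54 and 17 to 27 reads per library in the 2 h experiment, did not pass. The 4 TNFRSF10 genes lie in 1 cluster on chromosome 8 and are related in sequence, so reads between them may not be fully separated.

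The largest rise among members above 1 RPKM was that of AEN. AEN (chr15:89164568-89175512, plus strand) encodes an exonuclease that promotes the breakdown of DNA in apoptosis. It stood at 6.58 and 6.76 RPKM in untreated cells, a mean of 6.67 ± 0.133 (SD, n = 2), and at 11.5 and 14.6 RPKM after merbarone, a mean of 13 ± 2.2 (SD, n = 2). The log2 fold change was 0.86 ± 0.12 (adjusted p = 0.00262) in limma and 0.95 ± 0.12 (95% interval 0.70 to 1.2, adjusted p = 1.87e-06) in voom, or 1.94-fold. Of all genes tested by voom 2.66% had a larger log2 fold change. Over the fits that left out 1 library the limma value ran from 0.70 to 1.02, with adjusted p no higher than 0.00238. Without a minimum on expression it was 0.86 and did not pass in limma (adjusted p = 0.103), nor did any other member.

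Of the other 11 effectors of cell death, mitochondria and autophagy, SUSD6 and ZMAT3 rose and EI24 fell. SUSD6, a membrane protein with a sushi domain, had 0.317 and 0.319 RPKM in untreated cells and 0.544 and 0.529 RPKM in treated cells, and rose 1.69-fold in voom (log2 0.76 ± 0.13, adjusted p = 9.90e-05). ZMAT3, an RNA-binding zinc finger protein, had 2.5 and 2.09 against 2.96 and 2.79 RPKM. It passed in voom (log2 0.33, adjusted p = 0.0419) and not in limma (0.24, adjusted p = 0.104), and the voom call was lost without the second untreated library (0.23, adjusted p = 0.103) or either merbarone library (adjusted p = 0.468 and 0.24). EI24 (chr11:125439176-125454579, plus strand), a membrane protein of the endoplasmic reticulum, fell from 7.64 and 8.05 RPKM to 5.83 and 6.06 RPKM. Its log2 fold change was -0.35 ± 0.09 (adjusted p = 0.0359) in limma and -0.40 ± 0.11 (adjusted p = 0.0146) in voom, and the call was lost without either merbarone library in limma (adjusted p = 0.371 and 0.212) and in voom (0.325 and 0.164). In limma it was also lost under quantile normalization (adjusted p = 0.065) and with a minimum and pseudocount of 0.1 (adjusted p = 0.0587). PHLDA3, which blocks AKT at the membrane, had 27.6 and 35.8 RPKM in controls and 36.1 and 41.8 RPKM after merbarone, a voom difference of 0.31 with an adjusted p of 0.0955. The treated libraries also lay above the controls for NINJ1, which ruptures the membrane of dying cells (voom difference 0.20), CDIP1 (0.17), SPATA18 (0.29) and TRIAP1, an inhibitor of apoptosis (0.10), none of which passed. TP53I3, a quinone oxidoreductase, TP53INP1 and the lysosomal autophagy protein DRAM1 overlapped, with differences of -0.01, -0.15 and 0.04.

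**Figure D3:**
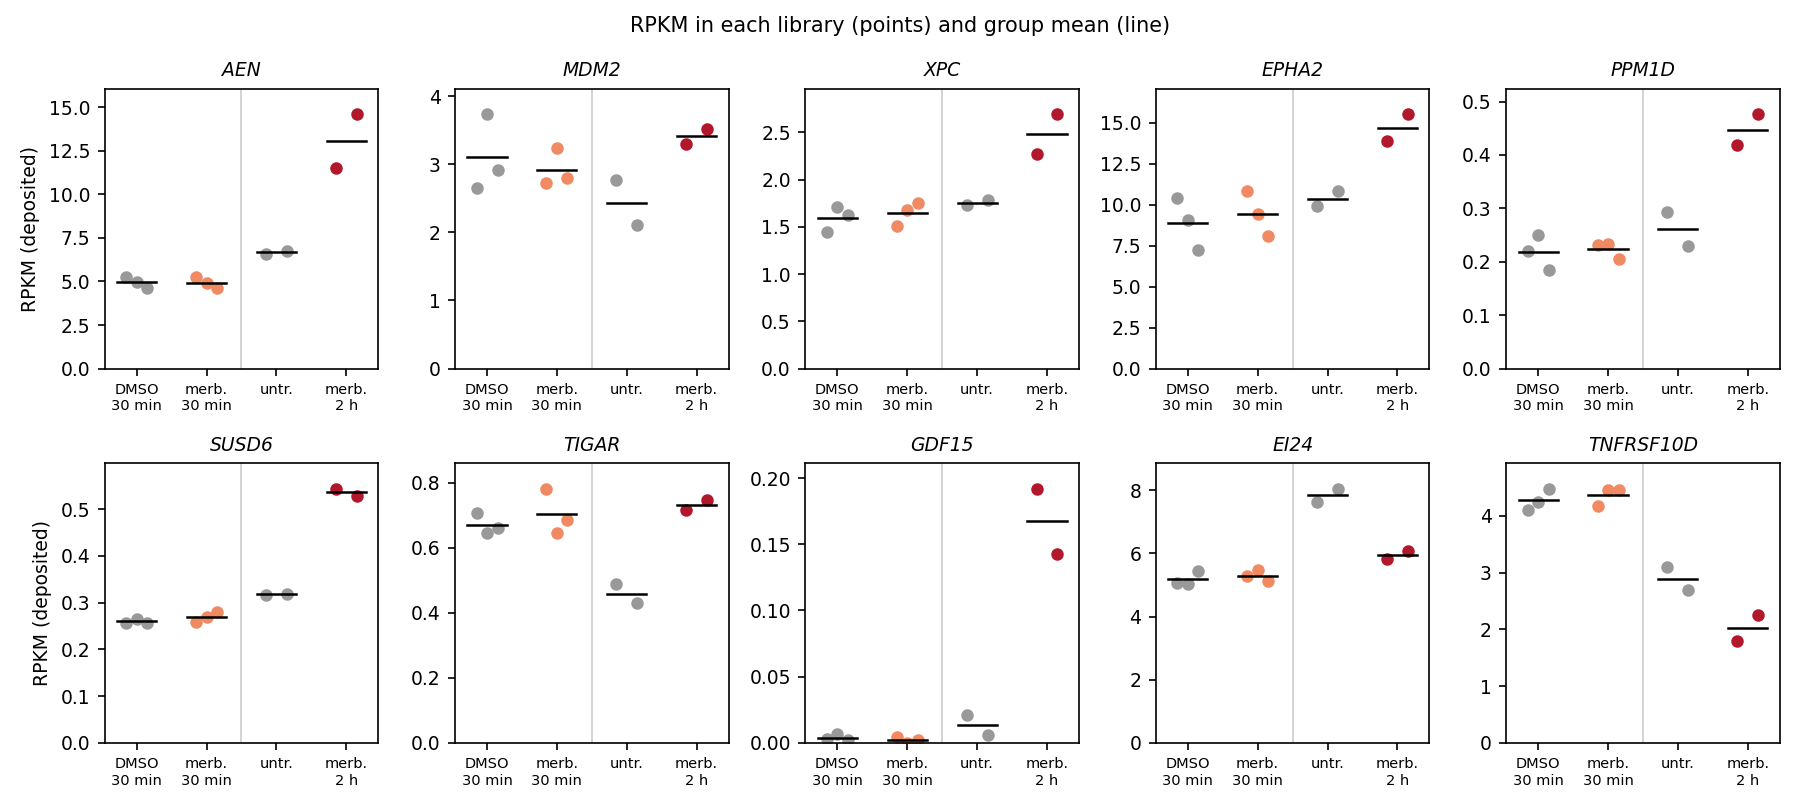
Deposited RPKM of 10 members in each library (points), with the group mean (black line), for DMSO 30 min, merbarone 30 min, untreated and merbarone 2 h; each y axis starts at 0 and has its own scale, and the vertical line separates the 2 experiments. The 30 min groups overlap in every panel; after 2 h AEN reaches 11.5 and 14.6 RPKM, while MDM2 and TIGAR stay within the range of the 30 min experiment.

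In metabolism TIGAR and FDXR rose, both in voom. TIGAR was under the RPKM minimum, and FDXR was tested in limma but did not pass (0.37, adjusted p = 0.0871). TIGAR, a phosphatase that slows glycolysis, had 0.488 and 0.429 RPKM in untreated cells and 0.717 and 0.746 RPKM in treated cells, a rise of 1.59-fold (log2 0.67 ± 0.15, adjusted p = 0.00288) that missed the threshold without the second merbarone library (0.64, adjusted p = 0.0663). FDXR, the mitochondrial reductase that passes electrons to ferredoxin, had 1.2 and 1.36 against 1.53 and 2.44 RPKM (log2 0.59 ± 0.19, adjusted p = 0.0288). Its rise rested on the second merbarone library, without which the value was 0.26 and the adjusted p 0.606. PANK1, which begins coenzyme A synthesis, had 0.325 and 0.312 RPKM in controls and 0.284 and 0.227 RPKM after merbarone, a difference of -0.32 with an adjusted p of 0.162. CMBL, a hydrolase, overlapped, and ACER2 had 17 reads in untreated and 19 in treated cells in all, a ratio per sequenced read of 1.06 (exact 95% interval 0.52 to 2.16, counting error only).

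Of the secreted factors and surface receptors, EPHA2 and KITLG rose and TLR3 did not pass. GDF15, a stress cytokine of the TGF-beta family, had the largest fold among the members but almost no reads, at 4 and 1 reads in untreated cells and 38 and 27 reads in treated cells. The ratio per sequenced read was 12.3 (exact 95% interval 5.01 to 39.1, counting error only). It reached the read minimum through the treated libraries alone, so its values are a description and its voom result is not counted. In the 30 min experiment the gene had 5 reads over the DMSO libraries and 3 over the merbarone libraries. EPHA2 (chr1:16450832-16482564, minus strand) went from 9.94 and 10.8 RPKM to 13.9 and 15.5 RPKM, with a log2 fold change of 0.47 ± 0.10 (adjusted p = 0.0228) in limma and 0.50 ± 0.11 (adjusted p = 0.00171) in voom. Its limma call was lost without either merbarone library (adjusted p = 0.0607 and 0.222) and with all 10 libraries in 1 fit (adjusted p = 0.095), and its voom call without the second merbarone library (0.42, adjusted p = 0.157). KITLG, the ligand of the KIT receptor, had 0.249 and 0.179 RPKM against 0.323 and 0.279 RPKM and passed in voom (log2 0.50 ± 0.15, adjusted p = 0.0274). The value was 0.30 without the second untreated library (adjusted p = 0.158) and 0.72 without the first, and the call was also lost without either merbarone library (adjusted p = 0.386 and 0.0732). TLR3, at 0.448 and 0.287 against 0.305 and 0.324 RPKM, overlapped. CCNG1 and FBXO22, a subunit of a ubiquitin ligase, had voom differences of 0.21 (adjusted p = 0.24) and 0.26 (adjusted p = 0.184).

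For several members the 2 h rise led to a level already seen in the 30 min experiment. Of the 11 members called higher in voom, 6 (AEN, EPHA2, FDXR, PPM1D, SUSD6 and XPC) had both treated libraries above all 6 libraries of the 30 min experiment, while over all genes called higher and at the minimum in both groups 69.6% did. Both treated libraries of MDM2 and TIGAR lay among those 6, and of the treated RRM2B libraries (1.74 and 1.8 RPKM) the second lay just above them (1.4 to 1.79 RPKM). ZMAT3 and KITLG rose from untreated levels that were lower, and after merbarone still lay below all 6, which ran from 3.72 to 4.42 RPKM for ZMAT3 and from 0.47 to 0.686 RPKM for KITLG. EI24 fell to a level above all 6 (5.02 to 5.47 RPKM), and TNFRSF10D to one below all of them (4.1 to 4.48 RPKM). The untreated libraries lay above every 30 min library for 9 of the 34 members with at least 10 reads and below for 5, beside 31.5% and 21.4% of all such genes. Depth differed between the experiments, and so did the epithelial keratin KRT18, which ran from 14.1 to 69.4 RPKM over all libraries. Their part in these levels was not tested.

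The difference between the 2 h and the 30 min effect was then tested directly over all 10 libraries. In limma 1 of 18 members passed, where 1.63% of 6558 genes did. AEN had a difference of 0.87 ± 0.14 (95% interval 0.56 to 1.18, adjusted p = 0.0175). In voom AEN (0.97, adjusted p = 0.0378) and SUSD6 (0.71, adjusted p = 0.0259) passed of 33, where 0.496% of genes did. The limma call of AEN was lost without either untreated library (adjusted p = 0.0619 and 0.0721) or the second merbarone 2 h library (0.0599). In voom AEN passed in 2 of 10 fits that left out 1 library and SUSD6 in 0, with values of 0.78 to 1.15 and 0.67 to 0.75. MDM2 (0.43, adjusted p = 0.268), XPC (0.30, 0.19), TNFRSF10D (-0.39, 0.142) and EI24 (-0.38, 0.0725) did not pass in limma. With the replicate number as a block in both experiments, 7 of 18 members passed, where 19.1% of all genes did. These were AEN (adjusted p = 0.00176), EPHA2 (0.0114), EI24 (0.0147), FDXR (0.0187), XPC (0.0202), MDM2 (0.035) and TNFRSF10D (0.0414). The numbers pair the 30 min libraries by their shared deviations, but are not shown to pair those of the 2 h experiment. In this contrast the length of treatment, the control used and the experiment itself cannot be told apart.

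Genes that act upstream of the members were set beside them. Of 11 upstream kinases, binding partners and related transcription factors, 10 were tested by voom at 2 h, of which 2 rose and 1 fell. Over all 13440 genes tested by voom 8.82% were called higher and 6.61% lower. PRKDC, the catalytic subunit of DNA-PK, rose (log2 0.79, adjusted p = 2.61e-05), as did ATM (0.41, adjusted p = 0.0223), and DAXX, a p53 partner, fell (-0.47, adjusted p = 0.00602). After 2 h of merbarone PRKDC, at 1.12 and 1.13 RPKM, lay within the range of the 30 min libraries (1.08 to 2.03 RPKM). ATM, at 0.398 and 0.392 RPKM, still lay below all of them (0.597 to 0.839 RPKM). ATM also shares exon sequence with a gene on the other strand. The list's median was 0.09.

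The p53 targets that the member list leaves out were mostly higher after 2 h. Of CDKN1A, BTG2, SESN1, SESN2, BAX, BBC3 and PMAIP1, voom called 6 of 7 higher and none lower, with a median log2 fold change of 1.53. The shares over all genes tested by voom were 8.82% higher and 6.61% lower. CDKN1A, the cell cycle inhibitor p21, went from 35 and 37.4 RPKM to 89 and 122 RPKM (log2 1.53, adjusted p = 1.52e-10). The largest were SESN2 (2.99, adjusted p = 5.96e-15), a stress-induced inhibitor of mTORC1, and BBC3 (2.48, adjusted p = 3.13e-12), the death protein PUMA, whereas BAX had a difference of -0.10. Of 15 genes of the amino acid response, the program driven by ATF4, 13 were called higher in voom, beside the same 8.82% of all genes. Their list's median was 1.26, and CHAC1 reached 5.87 (adjusted p = 4.16e-15). SESN2 stands in both lists, and both were drawn up with earlier results of these libraries known, so their direction is not independent evidence. At 30 min none of the 3 lists had a member called in limma or voom. With the replicate block voom called 1 gene of the amino acid response, beside 0.0928% of all genes.

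**Figure D4:**
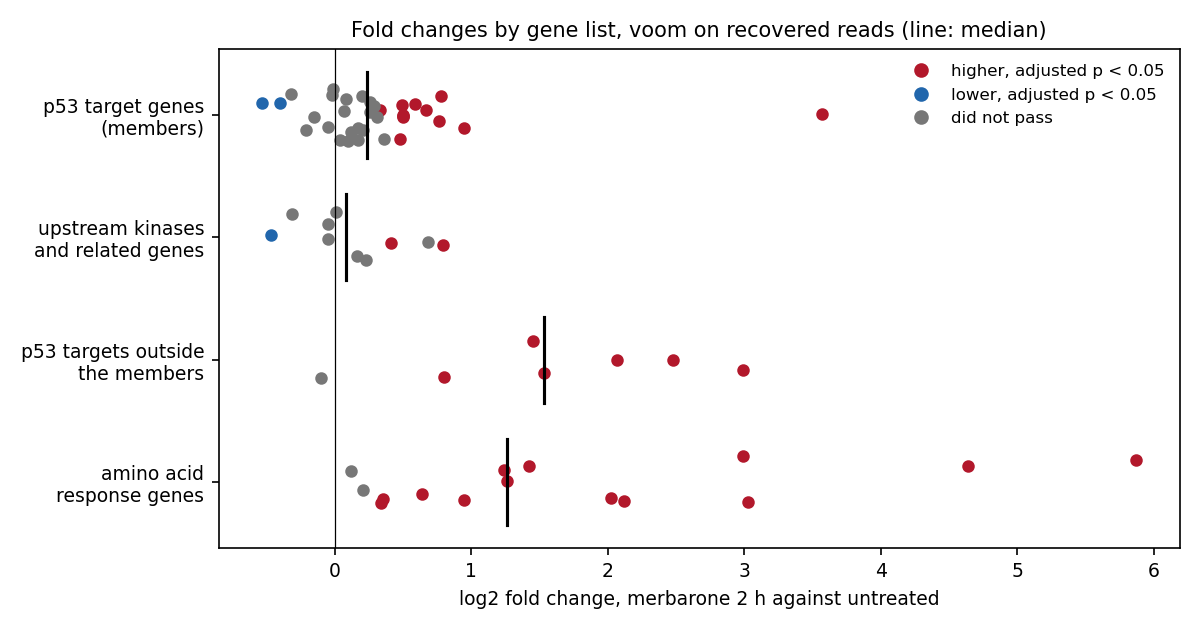
Log2 fold changes at 2 h in voom for the members and 3 further lists; each point is 1 gene, the black line is the list's median and vertical scatter within a row has no meaning. The members' median is 0.23 with GDF15 included, that of the upstream kinases and related genes 0.09, that of the p53 targets outside the members 1.53 and that of the amino acid response genes 1.26.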

How the data were processed

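The members and gene lists were chosen with earlier results of these data known. Per the file headers, the authors deposited an RPKM value per Ensembl gene and library. The submitters' processing notes name hg19/GRCh37 and Bowtie 1.2.0, and the read counter is not given in the sources used here, nor is the use of strand. Symbols were matched for 19637 genes. Whole reads were recovered from the RPKM steps for 100% of 17680 genes (relative tolerance 2e-11 on shared steps), with totals off by at most 0.0057%. The implied length lay within 1% of the genomic span for 74.9% of 17234 genes and 23 of 35 members, and genes that overlap others are uncertain.

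The main test was limma 3.58.1 (R 4.3.3) on log2(RPKM + 1) with eBayes trend, for genes averaging 1 RPKM or more, two-sided, with Benjamini-Hochberg adjustment over all genes tested and a threshold of 0.05. Fold changes on that scale understate changes of low genes. Voom used recovered reads with TMM scaling and a mean of at least 10 reads. Each experiment was fitted alone, and the difference over all 10 libraries. Same-numbered 30 min libraries deviated from their group means together (r = 0.925, 0.646 and 0.605), so their numbers pair them; the labels do not state why. Recovery and tests were tested on simulated data. The simulated replicates were drawn independently, and the changes put in were larger than those of all called members other than GDF15. Shared deviations between libraries and smaller changes were thus not covered. Values in every library of the 2 h experiment are given for members called in limma, with or without the block, or in voom. Further lists are given by counts with some genes named. For the upstream list these are all genes called, and for the amino acid response the largest change at 2 h and ATF3 at 30 min. For the p53 targets outside the members they are the 2 largest changes, the reference target CDKN1A and BAX, which was not called. A gene of the upstream list is not reported here. The search for half-site pairs, voom without each library and the 2 h counts over genes at the minimum in both groups were added after seeing the data.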

Additional observations from a re-analysis of the deposited data

Results flagged for a closer look

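AEN, the apoptosis-enhancing nuclease, is listed because its effect differed between the experiments by a test of the difference itself. The 2 h effect exceeded the 30 min effect by 0.87 on the log2(RPKM + 1) scale (limma, adjusted p = 0.0175). RPKM values were 6.58 and 6.76 in untreated cells and 11.5 and 14.6 after 2 h of merbarone, whereas the 30 min libraries ran from 4.61 to 5.28 RPKM in both groups. The length of treatment, the control used and the experiment itself cannot be told apart.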

How the results depend on the processing

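At 30 min the count of genes called was 1 and became 0 with no expression minimum or with a minimum and pseudocount of 0.1, 2 with a minimum of 5 RPKM, median scaling, quantile normalization or all 10 libraries in 1 fit, 8 with the replicate block and 13 with voom and the block, and it ran from 0 to 2 without single libraries. No member was called in any of these fits. At 2 h the count of genes was 866 and became 53 with no minimum, 397 with 5 RPKM, 2074 in voom, 2129 with the replicate block and 3563 with voom and the block, and it ran from 328 to 2464 without single libraries and, in voom, from 570 to 4130. The members called at 2 h numbered 6 and became 0 with no minimum, 3 with 5 RPKM, 10 with the replicate block, 14 in voom (GDF15 included) and 17 with voom and the block (MDM4, PHLDA3 and the death receptor TNFRSF10B added), with 2 to 11 without single libraries and, in voom, 5 to 17. Their median of 0.21 became 0.10 with no minimum and 0.14 to 0.21 without single libraries. For the difference between experiments the 107 genes became 361 with no minimum, 36 with 5 RPKM, 69 in voom, 1255 with the replicate block and 2026 with voom and the block, with 38 to 86 without single libraries and, in voom, 6 to 75. The 1 member called became 4 with no minimum, 2 with a minimum and pseudocount of 0.1, without trend or in voom, 7 with the replicate block and 13 with voom and the block, with 0 to 1 without single libraries in limma and in voom. The median of 0.22 became 0.10 with no minimum and 0.15 to 0.25 without single libraries. With no minimum more genes were tested and the low ones entered the variance trend; the cause of the other shifts was not tested. Over single members and these other settings 833 values kept their side of the threshold, 38 gained the call, 28 lost it and 0 reversed. The 833 include the 30 min values, where no member was called. A value counted as reversed only if it was called in the main or the other fit. Uncalled values could change sign, as CCNG1 did at 2 h, from 0.21 to -0.03 without the second untreated library. The 2 h pairs deviated together with r = 0.3 over 2 pairs, which does not establish pairing, and the block left 1 residual degree of freedom there. The fits without a library of the 2 h experiment leave 1 library in an arm, which is assumed to vary like the others. GDF15 is among the members called in each of those voom fits at 2 h. Depth limits TNFRSF10A, TNFRSF10C, GDF15 and ACER2, whose 2 h libraries hold at most 54 reads.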
